A study of Mus musculus with 32 samples.

Results

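The 8 members described here are the NF-kB inducible feedback genes Tnip3, Tnip1, Tnfaip3, Nfkbia, Nfkbiz, Birc3 and Relb, together with AA467197. They were taken by symbol from a table of 55103 genes, and all 8 passed the filter on low counts, which kept 20474 genes. They were chosen by known role and by measured values of these libraries: Tnip3 for its change, which differed between the carbon-ion and the photon arm, and AA467197 for its higher level after carbon ions. Those values are therefore given as a description, with no test.

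Expression was measured by stranded mRNA sequencing of 32 bulk tumours of KPC36, a mouse line that the labels call malignant and that the series' title places in a model of pancreatic ductal adenocarcinoma. The 4 groups of 8 were tumours given carbon ions (label carbon_treated), untreated tumours of that arm (carbon_ctrl), tumours given photons (photon_treated) and untreated tumours of the photon arm (photon_ctrl). Carbon ions are heavy charged particles and photons are conventional radiotherapy, and the labels give no dose, age, sex or host strain. Tumours were taken 4 or 7 days after treatment, but the labels do not say which library belongs to which day, so the days could not be compared. Whether the 8 libraries of a group come from 8 animals is not stated, so the p-values measure the spread between these samples. The 7 libraries whose titles start with D are all of the carbon-ion arm (4 controls and 3 irradiated), and the 25 M titles hold the rest. In the photon arm every irradiated library has a higher title number than every control, while in the carbon-ion arm the numbers interleave. What the letters and numbers mean is not given.

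NF-kB is a family of transcription factors held in the cytoplasm by inhibitor proteins until receptors for TNF, interleukin-1 or bacterial products switch on a kinase complex. Once free, it induces genes for inflammation and also genes for its own inhibitors, which shut the signal down again. Among the members, Nfkbia encodes IkBα, the inhibitor that recaptures NF-kB, and Nfkbiz encodes IkBζ, a nuclear relative that helps NF-kB at a subset of promoters. Tnfaip3 encodes A20, an enzyme that edits ubiquitin chains on signalling proteins, and Tnip1 and Tnip3 encode A20-binding proteins of the ABIN family. Birc3 encodes the ubiquitin ligase cIAP2. Relb encodes the NF-kB subunit that pairs with p52 in the non-canonical branch. AA467197 is the mouse counterpart of human C15orf48, a small mitochondrial protein related to the complex IV subunit Ndufa4 and known to be induced in inflammatory macrophages.

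Because the list was drawn up around NF-kB inducible genes, the sequence just before the start of each gene was searched for NF-kB sites. The RefSeq table of promoters (build GRCm38.p6) held a window for 6 of the 8 members and none for Nfkbiz or Relb. In the 250 bases before the start, 4 of these 6 had a match to the kB consensus on either strand, against 4.46% of 27025 genes. The narrower motif GGGNNTTTCC, whose matches also match the consensus here, was found in Tnfaip3 and Nfkbia and in 1.65% of genes. The windows of Tnip3, Tnip1 and Nfkbia, which hold no exon bases in the annotation, are shown on the coding strand with the consensus matches in capitals, to let their sites be compared with the values that follow. They lie at chr6:65590148-65590397 on the plus strand, chr11:54962941-54963190 on the minus strand and chr12:55492648-55492897 on the minus strand.
Tnip3: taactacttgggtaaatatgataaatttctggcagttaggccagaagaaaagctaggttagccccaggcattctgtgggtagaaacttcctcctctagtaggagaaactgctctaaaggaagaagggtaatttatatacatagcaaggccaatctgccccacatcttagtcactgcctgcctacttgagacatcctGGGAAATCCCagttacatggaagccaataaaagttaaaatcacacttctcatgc
Tnip1: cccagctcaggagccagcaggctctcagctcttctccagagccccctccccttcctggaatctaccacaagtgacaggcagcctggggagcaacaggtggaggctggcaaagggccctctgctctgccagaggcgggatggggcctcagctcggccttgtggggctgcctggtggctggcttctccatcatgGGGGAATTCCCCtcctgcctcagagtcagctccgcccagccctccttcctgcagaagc
Nfkbia: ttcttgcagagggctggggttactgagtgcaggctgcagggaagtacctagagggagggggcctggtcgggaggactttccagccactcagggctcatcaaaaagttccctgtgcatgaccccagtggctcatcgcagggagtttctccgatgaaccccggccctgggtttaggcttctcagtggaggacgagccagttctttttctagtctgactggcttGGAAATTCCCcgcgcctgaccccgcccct
The match of Tnip3 lies 54 to 45 bases before the start and fits the consensus on both strands. The overlapping matches of Tnip1 span bases 58 to 47 before the start, and that of Nfkbia bases 29 to 20, read on the opposite strand. Tnfaip3 has 2 windows in the table. The first has GGGACACCCC at 125 to 116 bases and GGAAATCCCC at 12 to 3 bases before its start, and the second, at a start further inside the gene, has no match. No match lies in the windows of Birc3 and AA467197, which says only that the letters are not in these 250 bases. These windows are not all upstream sequence: 122 bases of that of AA467197, 110 of the first of Tnfaip3 and 16 of that of Birc3 lie in the gene's own annotated exons. A match is a description of sequence, and binding was not measured.

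In the GENCODE annotation of GRCm38, Tnip3 lies at chr6:65525313-65634040 (plus strand). Tnip1 lies at chr11:54910785-54962917, Tnfaip3 at chr10:19000910-19015657, Nfkbia at chr12:55489410-55492647, Nfkbiz at chr16:55811375-55838899, Birc3 at chr9:7848699-7873186 and Relb at chr7:19606217-19629438, all on the minus strand. AA467197 lies at chr2:122636986-122641191 on the plus strand. The RefSeq starts used above fall inside these spans for Tnip3, Tnfaip3, Birc3 and AA467197, and the whole windows of Tnip3 and AA467197 lie inside the spans of these genes. The untranslated region of AA467197 holds the hairpin of the microRNA gene Mir147 at chr2:122640803-122640881. The mature strand given by RefSeq for that hairpin, at chr2:122640814-122640837, is shown with its seed (bases 2 to 8) in capitals, because a read of AA467197 can cover it.
mmu-miR-147-5p: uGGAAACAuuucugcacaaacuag
Mir147 was at a count of 0 in all 32 libraries, and mRNA libraries do not measure mature microRNAs. Tnip1 contains the processed pseudogene Gm12230 on the opposite strand, with no shared exon and a highest count of 34. No other member overlaps an annotated gene.

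Library totals ran from 13891863 to 71645903 estimated counts. Counts of the members lay between 63 and 7370 per library, with AA467197 (63 to 600) and Tnip3 (86 to 769) the least covered, so these 2 would carry the largest counting error. Almost no value had 2 decimals or fewer, and whether the estimates were rescaled before deposit is not given in the sources used here, so totals and counts are only a guide to read depth. Epithelial markers (Epcam, Krt8, Krt18, Krt19, Krt7, Cdh1, Cldn4 and Cldn7) summed to between 2396 and 5369 CPM (the count relative to the scaled library total) in every library. Markers of pancreatic acinar cells summed to at most 21.04 CPM. Macrophage and monocyte markers summed to between 389.3 and 1131 CPM, so every library also held RNA of other cells. The skeletal muscle markers (6 genes) had a median sum of 208.9 CPM in the carbon-ion controls (2.207 to 2273), 310.3 after carbon ions (3.206 to 3032), 595.0 in the photon controls (3.147 to 1264) and 6.938 after photons (0.963 to 307.3). All 6 had a negative log2 fold change after photons (median -3.12) and a positive one between the irradiated groups (median 3.16). With edgeR none passed in either contrast, while all 6 had an unadjusted p under 0.05 in both and DESeq2 called 3 and 2. The part of this tissue in the results was not tested. In such bulk samples, fewer cells of a type and less RNA per cell cannot be told apart.

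Tnip3 showed opposite differences in the carbon-ion and photon arms, which is what it was chosen for. CPM compares libraries for the same gene and not genes with each other, since it takes no account of gene length. The carbon-ion controls had a lowest, median and highest Tnip3 level of 6.20, 9.81 and 12.64 CPM. After carbon ions these were 6.37, 14.14 and 19.12 CPM. Of the irradiated libraries, 7 of 8 lay above the control median and 5 of 8 above the highest control, while replicate 8, at 6.37 CPM, lay near the lowest control. In the photon controls the lowest, median and highest levels were 10.36, 14.5 and 18.6 CPM, and after photons 5.61, 9.59 and 10.64 CPM. All photon-irradiated libraries were below the control median and 6 of 8 were below the lowest control. The 2 ranges touched only through photon control replicate 2, which at 10.36 CPM lay below irradiated replicates 1 and 7.

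The means of Tnip3 were 9.73 ± 2.07 CPM (SD, n = 8) in the carbon-ion controls and 14.03 ± 4.39 under carbon ions, or 0.53 ± 0.18 as log2 fold change ± its standard error (SE). For photons they were 14.84 ± 2.54 CPM (SD, n = 8) in the controls and 8.70 ± 2.05 after treatment, or -0.77 ± 0.18 (SE) in log2. The difference between the effects was 1.29 ± 0.25 (SE) in log2. Ordered by mean, the photon controls and the carbon-ion irradiated tumours stood at the top and overlapped, and the carbon-ion controls and the photon-irradiated tumours stood at the bottom and overlapped. The untreated groups stood apart as well: the carbon-ion controls were lower than the photon controls by 0.61 in log2 (SE 0.18), nearly as large as the gap of 0.69 (SE 0.18) between the irradiated groups in the other direction. Each effect uses its own controls, and the difference of the effects contains this gap between the untreated arms. It ranged from 1.216 to 1.399 when each library was left out in turn. Within D titles, the carbon-ion means were 10.3 ± 1.46 CPM (SD, n = 4) untreated and 14.5 ± 4.08 (n = 3) irradiated. Within M titles they were 9.17 ± 2.66 (n = 4) and 13.7 ± 5.01 (n = 5), so the direction was the same under both letters.

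**Figure D1:**
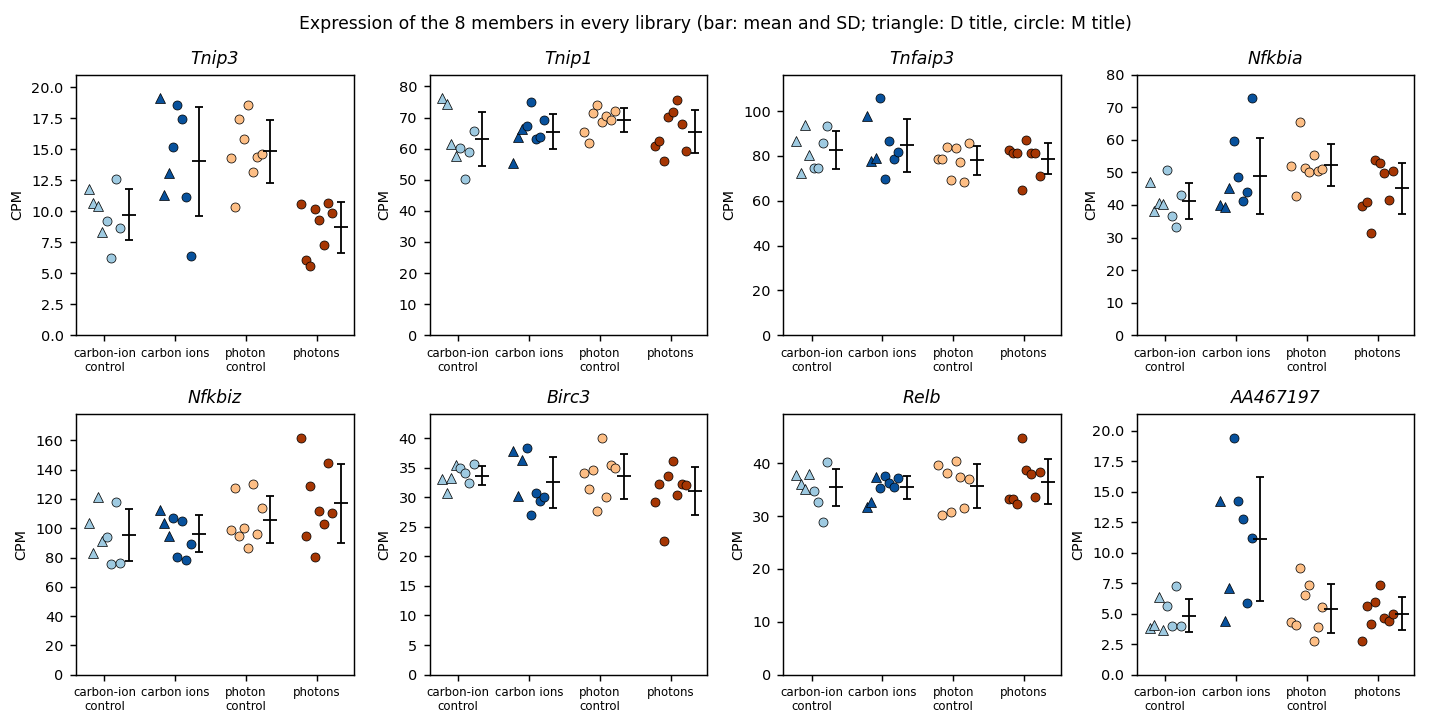
CPM of each of the 8 members in every library of the 4 groups, with 1 panel per gene; points are libraries (triangles for D titles, circles for M titles) and bars give the mean and SD. Tnip3 is high in the photon controls and the carbon-ion irradiated tumours, and AA467197 stands above its highest control in 5 of 8 carbon-ion irradiated tumours.

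AA467197 was higher after carbon ions, which is what it was chosen for, and near its control level after photons. The lowest, median and highest levels were 3.65, 4.03 and 7.27 CPM in the carbon-ion controls and 4.36, 11.98 and 19.45 CPM after carbon ions. All 8 irradiated libraries were above the control median and 5 of 8 above the highest control; replicates 2, 3 and 7, at 4.36, 7.08 and 5.86 CPM, lay within the control range. The means were 4.84 ± 1.38 and 11.15 ± 5.09 CPM (SD, n = 8), which is 1.20 ± 0.26 (SE) in log2. Under D titles the means were 4.48 ± 1.27 (n = 4) and 8.56 ± 5.10 (n = 3), and under M titles 5.21 ± 1.58 (n = 4) and 12.7 ± 4.92 (n = 5). Leaving out each library in turn moved the log2 fold change between 1.04 and 1.32.

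The photon effect on AA467197 was not used to choose the gene and was tested. The photon controls had a lowest, median and highest level of 2.78, 4.94 and 8.72 CPM, and the photon-irradiated tumours 2.79, 4.81 and 7.35 CPM. These ranges lay on top of each other, with 4 of 8 irradiated libraries above the control median. The log2 fold change was -0.12 (SE 0.26, with an interval of about 2 SE on each side from -0.62 to 0.38), and the edgeR adjusted p was 0.828. The difference between the effects was 1.32 ± 0.36 (SE). The log2 difference between the controls of the arms was -0.16 (SE 0.26) for this gene. It ran from -0.25 (without carbon-ion control replicate 7) to -0.02 (without photon control replicate 3) when 1 library was left out, and was 0.03 with the title letter as covariate.

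The IkB genes of the list did not follow one pattern. Nfkbia had lowest, median and highest levels of 33.26, 40.52 and 50.6 CPM in the carbon-ion controls and 39.41, 44.66 and 72.76 CPM after carbon ions. In the photon controls these were 42.66, 51.17 and 65.4 CPM, and after photons 31.4, 45.66 and 53.94 CPM. The groups overlapped in every pair, and the carbon-ion irradiated group had its top value in replicate 8. That is the library with the lowest Tnip3 of its group. The log2 fold change after carbon ions was 0.25 (SE 0.12), with a range of 0.15 (without that replicate 8) to 0.29 when 1 library was left out and 0.40 with M titles alone. After photons it was -0.21 (SE 0.12, edgeR adjusted p = 0.302). The difference of these effects, 0.46 (SE 0.17), is given without a test. Under D titles Nfkbia stood at 41.6 ± 3.83 CPM (n = 4) untreated and 41.5 ± 3.24 (n = 3) after carbon ions, and under M titles at 40.8 ± 7.67 (n = 4) and 53.3 ± 12.9 (n = 5). The higher level after carbon ions was thus found in the M-titled libraries and not in the D-titled ones; this contrast between the letters was not tested.

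Of the 6 members tested between the untreated arms, Nfkbia was the nearest to the threshold; Tnip3 and AA467197 were not tested there. Its level was lower in the carbon-ion controls than in the photon controls by 0.34 on the log2 scale (SE 0.12), with 0 of 8 libraries above the photon control median and 5 of 8 below the lowest photon control. By edgeR the p was 0.00721, or 0.0653 once adjusted, above the threshold of 0.05. Over the alternative settings the adjusted p ran from 0.0242 to 0.29. It passed without photon control replicate 2 (0.0481), without carbon-ion control replicate 5 (0.0370) and without carbon-ion irradiated replicate 8 (0.0497).

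Nfkbiz, the nuclear IkB, had its highest mean level after photons. The lowest, median and highest values were 75.33, 92.56 and 121.4 CPM in the carbon-ion controls and 78.26, 98.97 and 112.5 CPM after carbon ions. They were 86.36, 99.33 and 130.4 CPM in the photon controls and 80.59, 111.0 and 162.0 CPM after photons, the widest spread of the 4 groups. The photon effect was 0.14 (SE 0.12, edgeR adjusted p = 0.539). Carbon-ion irradiated tumours were lower than photon-irradiated ones by 0.28 (SE 0.12), with a p of 0.0307, or 0.156 once adjusted.

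The A20 axis without Tnip3 was nearly level across the groups. Tnfaip3 means were 82.6 ± 8.52, 84.7 ± 11.7, 78.1 ± 6.46 and 78.8 ± 7.10 CPM (SD, n = 8) in the carbon-ion controls, after carbon ions, in the photon controls and after photons. Tnip1 means, in the same order, were 63.1 ± 8.64, 65.5 ± 5.59, 69.1 ± 3.91 and 65.5 ± 6.89 CPM (SD, n = 8). The photon effect was 0.01 for Tnfaip3 (SE 0.08, adjusted p = 0.949) and -0.08 for Tnip1 (SE 0.08, adjusted p = 0.587), both by edgeR. Between the untreated arms Tnip1 was lower in the carbon-ion controls by 0.13 (SE 0.08, edgeR adjusted p = 0.306). Of the 8 carbon-ion controls, 5 lay below the lowest photon control and 2 above the highest. With M-titled libraries alone, the carbon-ion log2 fold change of Tnip1 was 0.22 in place of 0.05, and its difference of effects 0.30 in place of 0.13. Transcripts of the partners Tnip1 and Tnfaip3 thus had photon differences smaller than 0.1 on the log2 scale, where that of Tnip3 was -0.77; the gap between the genes was not tested.

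Birc3 and Relb differed by at most 0.11 in log2 between any pair of groups compared. Birc3 means in the same group order were 33.7 ± 1.66, 32.5 ± 4.35, 33.6 ± 3.82 and 31.1 ± 3.99 CPM (SD, n = 8). Relb means were 35.5 ± 3.50, 35.5 ± 2.18, 35.6 ± 4.16 and 36.5 ± 4.27 CPM (SD, n = 8). The photon effect was -0.11 for Birc3 (SE 0.08, adjusted p = 0.478) and 0.04 for Relb (SE 0.08, adjusted p = 0.830), both by edgeR. Their values overlapped in all 4 groups, lying from 22.65 to 40.13 CPM for Birc3 and from 28.88 to 44.86 CPM for Relb.

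Counted together, none of the 7 members tested for the photon effect passed an adjusted p of 0.05 with edgeR, where 3.81% of all genes did (351 higher and 430 lower). None of the 7 had an unadjusted p under 0.05, and DESeq2 called none. Between the controls of the arms 0 of 6 tested members passed, against 9.14% of all genes, and 1 had an unadjusted p under 0.05. Between the irradiated groups 0 of 6 passed, against 5.08% of all genes (726 higher and 315 lower after carbon ions), and again 1 had an unadjusted p under 0.05. DESeq2 also called none of the 6 in either contrast. Scaling to the upper quartile in place of the trimmed mean turned these splits over all genes to 566 higher and 394 lower for photons, and 519 and 537 for the irradiated groups. For the 2 contrasts that chose members, 0.0% of all genes passed after carbon ions and 0.0781% passed for the difference of the effects, 7 higher and 9 lower (22 and 72 with upper-quartile scaling). In no pair of groups were the values of any member free of overlap, where this held for 0.0293% of all genes after carbon ions, 0.474% after photons, 1.31% between controls and 0.161% between irradiated groups.

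**Figure D2:**
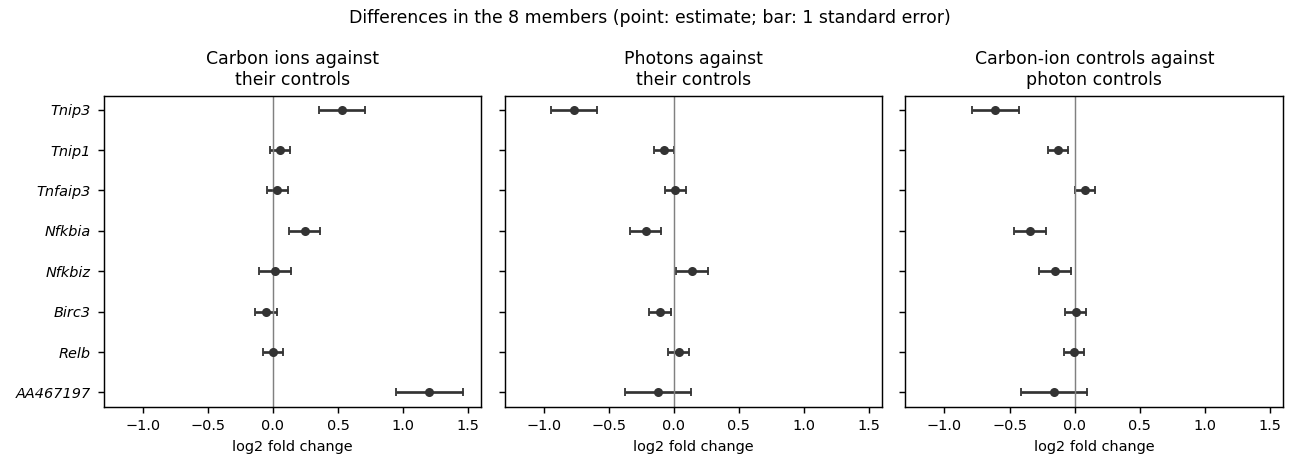
Log2 fold change of each member (x axis) after carbon ions, after photons and between the untreated arms, with bars of 1 SE and a line at 0. Tnip3 lies right of 0 after carbon ions (0.53) and left of it after photons (-0.77) and between the controls (-0.61), while AA467197 is farther from 0 after carbon ions (1.20) than in the other panels (-0.12 and -0.16).

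The rest of the pathway was described from 5 lists of 103 genes, of which 101 were tested and 94 are not members. After carbon ions none of these 94 passed with edgeR, while 10 had an unadjusted p under 0.05 and DESeq2 called 1, Cxcl10. Of them, 70 had a positive and 24 a negative log2 fold change. After photons 3 rose and 4 fell, with 37 positive and 57 negative. For the difference of the effects none passed (25 with an unadjusted p under 0.05, 5 with DESeq2, namely Cyld, Il33, Irak1, Itch and Tab1), and 70 were positive. Between the untreated arms, 8 had a higher level in the carbon-ion controls and 6 a lower one, and between the irradiated groups 7 were higher and 1 lower after carbon ions. Over all genes tested, 3.81% passed after photons, 9.14% between the untreated arms and 5.08% between the irradiated groups. Among all genes, 51.5% had a positive carbon-ion effect, 49.9% a positive photon effect and 52.0% a positive difference. The contrasts share control libraries, so these counts are not independent of each other.

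None of the NF-kB subunit genes passed a test. Rela, Rel, Nfkb1 and Nfkb2, which encode p65, c-Rel, p50 and p52 with their precursors, had photon effects of 0.06, -0.05, -0.07 and -0.11 on the log2 scale. Their carbon-ion log2 fold changes were 0.03, -0.10, 0.00 and -0.02. With edgeR none of the 4 passed in any contrast, and DESeq2 called none. At an unadjusted p under 0.05 stood 1 gene between controls, Nfkb1 at -0.15, and 1 between irradiated groups, Rel at -0.19. Among 17 further feedback inhibitors the median log2 fold change was 0.05 after carbon ions and -0.14 after photons, against 0.01 and 0.00 over all genes. Cyld, a deubiquitinase that dampens NF-kB, was the 1 that rose after photons, from 70.23 ± 5.91 to 83.94 ± 5.52 CPM (SD, n = 8), or 0.26 in log2 (adjusted p = 0.0135). It missed the threshold without photon control replicate 3, at 0.0508. Between the untreated arms Itch, a ubiquitin ligase that works with A20, was lower in the carbon-ion controls by 0.24 on the log2 scale (adjusted p = 0.00378). Bcl3, a nuclear IkB relative, was lower there by 0.35 (adjusted p = 0.00862). Cyld was higher there by 0.21 (adjusted p = 0.0168), so it was low in the photon controls against both groups. That call missed the threshold without photon control replicate 3 (0.0502) and with M titles alone (0.0789). The calls on Itch and Bcl3 held in all 32 fits that left out 1 library, while that on Itch was lost with M titles alone (0.0884). Otud7b, a deubiquitinase related to A20, was lower in the carbon-ion than in the photon-irradiated tumours by 0.29 (adjusted p = 0.0317, or 0.0951 without photon-irradiated replicate 3). That call held in 24 of 32 fits that left out 1 library and in 3 of 7 other settings.

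Kinases and adaptors had medians close to that of all genes, at 0.02 after carbon ions and 0.05 after photons over 20 genes. Irak1, a kinase of the interleukin-1 and Toll-like receptor pathway, rose after photons by 0.30 (SE 0.08, adjusted p = 0.0260). Myd88, the adaptor of the same receptors, fell by 0.33 on the log2 scale (SE 0.10, adjusted p = 0.0464). The call on Myd88 held in 7 of 32 fits that each left out 1 library, and was weakest without photon control replicate 3 (0.123). That on Irak1 held in 26 and was weakest without photon-irradiated replicate 6 (0.0696). Irak1 was also higher in the carbon-ion controls than in the photon controls, by 0.38 (adjusted p = 0.00272), and so was Ikbkg, the regulatory subunit of the IkB kinase, by 0.43 (adjusted p = 0.00748), both in all 32 fits but neither with M titles alone (0.0548 and 0.0998). Tab1, which activates the kinase TAK1, was higher by 0.23 (adjusted p = 0.0446, held in 19 of 32 fits, 0.281 with M titles alone).

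Ligands and receptors leaned lower after photons, with 15 of 20 tested genes negative and a median of -0.21. Those that fell were Il33, an alarmin cytokine of the interleukin-1 family, at -0.71 (adjusted p = 0.0156), Ltb, which encodes lymphotoxin beta, at -0.90 (0.0430), and Il1rap, the shared chain of interleukin-1 family receptors, at -1.05 (0.0463). These held in 31, 20 and 15 of 32 fits that left out 1 library, and were weakest without photon control replicates 3 (0.0519), 5 (0.102) and 3 (0.131). Il33 stood at 204.7 ± 44.6 CPM (SD, n = 8) in the photon controls, 125.6 ± 26.8 after photons, 110.9 ± 27.4 in the carbon-ion controls and 139.2 ± 35.3 after carbon ions. Like Tnip3, it was therefore lower in the carbon-ion than in the photon controls, by 0.88 (adjusted p = 0.00114). The lymphotoxin beta receptor Ltbr and the RANKL receptor Tnfrsf11a were higher in the carbon-ion controls, by 0.35 (adjusted p = 0.0198) and 0.38 (0.0219). These calls held in 29 and 32 of 32 fits that left out 1 library. Each held in 5 of 7 other settings, with highest adjusted p of 0.107 and 0.0803. Between the irradiated groups 19 of 20 were positive. Il1rn, the interleukin-1 receptor antagonist, was higher after carbon ions than after photons by 0.89 (adjusted p = 0.0149). Tnf was higher by 0.65 (0.0325) and Cd40, a receptor of antigen-presenting cells, by 0.68 (0.0386). The call on Il1rn held in all 32 fits. Those on Tnf and Cd40 held in 28 and 22, weakest without photon-irradiated replicate 1 (0.0739 and 0.0854). Of the 7 settings other than leaving out a library, the calls on Il1rn, Tnf and Cd40 held in 6, 4 and 2.

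The remaining inducible targets were the list with the largest median for the difference of the effects, 0.47 over 33 genes, against 0.02 over all genes. The medians of this list were 0.20 after carbon ions (28 of 33 positive) and -0.21 after photons (22 of 33 negative). Cxcl10, a chemokine that interferon also induces, rose after photons from 1.38 ± 0.474 to 5.53 ± 5.13 CPM (SD, n = 8), or 2.01 in log2 (adjusted p = 0.0135). Its values after photons ran from 1.13 to 15.79 CPM and overlapped the controls. After carbon ions it ran from 1.88 to 16.46 CPM against 1.04 to 3.21 CPM in the controls, or 1.84 in log2 (SE 0.44), which edgeR did not call (adjusted p = 0.314). The difference of its effects was -0.16 (SE 0.61, adjusted p = 0.919). Between irradiated groups Bcl2a1b, a survival gene of the Bcl2 family, was higher after carbon ions by 0.997 (adjusted p = 0.0141), Cd83, an activation marker of immune cells, by 0.59 (0.0338), and Bcl2a1d by 0.83 (0.0347). Bcl2a1b and Bcl2a1d are near-identical copies, so the split of reads between them is uncertain. The call on Bcl2a1b held in all 32 fits that left out 1 library. Those on Cd83 and Bcl2a1d held in 26 and 25, both weakest without photon-irradiated replicate 3 (0.0812). Of the 7 other settings, the calls on Bcl2a1b, Cd83 and Bcl2a1d held in 7, 2 and 3. Between controls Icam1, an adhesion molecule, was lower in the carbon-ion arm by 0.41 (adjusted p = 0.0167, or 0.0579 without photon control replicate 6). Lcn2, which encodes the iron-scavenging lipocalin, was lower there by 2.27 (0.0306). One photon control, replicate 2, held Lcn2 at 173.2 CPM, and without it the adjusted p was 0.361.

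**Figure D3:**
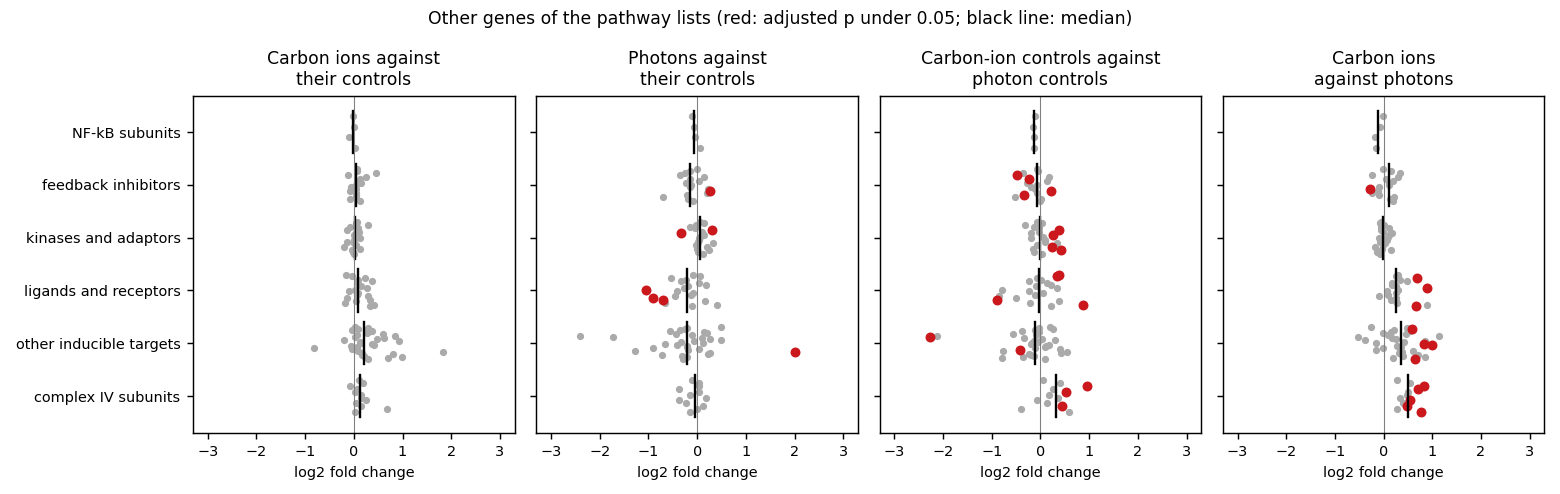
Log2 fold change of every tested list gene that is not a member, by list and contrast, with a black line at the median and red points for an adjusted p under 0.05. The subunit list sits near 0, while the inducible targets spread to positive values after carbon ions (median 0.20) and to negative values after photons (median -0.21).

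Marker lists of several cell types moved in the same contrasts, and their part in these results was not tested. Summed macrophage and monocyte markers (10 genes, none at 0 throughout) ranged from 709.2 to 996.4 CPM in the carbon-ion controls, 664.9 to 1131 after carbon ions, 589.1 to 1038 in the photon controls and 389.3 to 752.1 after photons. Of these 10 genes, 2 fell after photons (Csf1r and Mrc1) and 4 were higher in the carbon-ion than in the photon-irradiated tumours (Csf1r, C1qa, C1qb and C1qc). Neutrophil markers, 5 of 9 tested, ranged from 15.01 to 34.75 CPM after photons and from 23.66 to 61.59 CPM in the photon controls, and 3 of the 5 fell (Cxcr2, Retnlg and Csf3r). Between the irradiated groups all 5 were positive (median 1.32), and Retnlg, S100a8 and S100a9 were higher after carbon ions, the contrast in which Il1rn, Tnf, Bcl2a1b, Bcl2a1d and Cd83 were higher too. Of 7 dendritic cell markers, 6 were negative after photons (median -0.69) and 5 between controls (median -0.30), and Zbtb46 passed in both. Their sum, of which Fscn1 alone made up 84.7% to 95.9%, had medians of 239.2 CPM in the photon controls, 242.4 after photons, 245.7 in the carbon-ion controls and 231.5 after carbon ions. Fibroblast markers ran from 12560 to 26790 CPM in the photon controls, 9133 to 16920 after photons, 6126 to 16490 in the carbon-ion controls and 5472 to 20950 after carbon ions. Of the 8, Pdgfrb and Fap fell after photons, and Col1a2 and Pdgfra were lower in the carbon-ion than in the photon controls. All 8 epithelial markers had a positive log2 difference of the carbon-ion from the photon arm, both between controls (median log2 difference 0.38, with Cdh1, Cldn4 and Cldn7 passing) and between irradiated groups (median 0.42, with Cldn7 passing). Endothelial markers were negative after photons in 6 of 6 genes (median -0.44), of which Tek and Emcn fell, and negative in 6 of 6 between controls, where Emcn passed. Of 7 T cell markers, 6 were negative after photons (median -0.90): Cd3d fell and Cd8a rose. Within groups, AA467197 had a Pearson r of 0.28 and a Spearman rho of 0.31 with the macrophage sum (permutation p = 0.137 and 0.106, adjusted 0.445 and 0.397 over 88 relations). The Pearson r of Tnip3 with the macrophage sum was 0.11. Without the 2 libraries farthest from the median, r with this sum was 0.47 for AA467197 and 0.35 for Tnip3.

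AA467197 and the complex IV genes were compared because its protein is related to Ndufa4. Ndufa4 means were 87.1 ± 20.9 CPM (SD, n = 8) in the carbon-ion controls, 88.6 ± 45.4 after carbon ions, 57.7 ± 12.6 in the photon controls and 51.96 ± 11.3 after photons. Its log2 fold change was 0.03 (SE 0.21) after carbon ions and -0.15 (SE 0.21) after photons. Neither passed. The gap between the arms was 0.77 between irradiated groups (adjusted p = 0.0329) and 0.60 between untreated groups (0.0653). Of the 12 complex IV genes, 12 were positive between irradiated groups and 5 passed, namely Cox7b at 0.83 (adjusted p = 0.0162), Cox7a2 at 0.70 (0.0279), Cox4i1 at 0.47 (0.0282) and Cox5b at 0.55 (0.0340) beside Ndufa4. Over all genes 51.1% were positive and 5.08% passed in that contrast, and 46.8% and 9.14% between the untreated arms. The epithelial markers were positive in both contrasts too, and their part in these values was not tested. Cox7b also passed between the untreated arms, at 0.95 (adjusted p = 0.00151), as did Cox4i1 at 0.44 (0.0201) and Cox6c at 0.52 (0.0463). Both calls on Cox7b held in all 32 fits that left out 1 library. The other 4 between irradiated groups held in 25 to 27, each weakest without carbon-ion irradiated replicate 2 (0.0801 to 0.105). Of the 7 other settings, the calls between irradiated groups held in 7 for Cox7b and in 5 for Cox7a2 and Cox4i1. Those on Cox5b and Ndufa4 held in 4 and 3. Cox4i1 and Cox6c between controls held in 31 and 15, weakest without carbon-ion control replicate 7 (0.0545 and 0.134). After carbon ions and after photons none of the 12 passed with edgeR or DESeq2, and 0 and 2 (Cox5b and Cox7a2) had an unadjusted p under 0.05.

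Whether the members vary together from tumour to tumour was asked within groups. The mean of each group was subtracted from log2 CPM, so that no difference between group means enters. Collection day, not known per library, was not subtracted, nor was the title letter. The part of the day in these r and p was not tested. Of 28 pairs, 18 had a positive Pearson r. Nfkbia and Relb were the closest pair, with r = 0.60 and rho = 0.64 over 32 libraries (permutation p = 0.00015 and 8e-05, adjusted 0.0042 and 0.00224). Without the 2 libraries farthest from the median r was 0.62, over the 25 M-titled libraries 0.585, and in the 4 groups 0.63, 0.52, 0.52 and 0.87. Tnip1 and Nfkbia followed with r = 0.52 and rho = 0.58 (permutation p = 0.00322 and 0.00139, adjusted 0.0451 and 0.0195), and r = 0.51 without the 2 farthest libraries. Of both pairs, that of Nfkbia and Relb also passed without the 2 farthest libraries (adjusted p = 0.00812) and with M titles alone. Tnip1 and Nfkbia did not, with an adjusted p of 0.0968 without the 2 farthest libraries and an r of 0.56 over the M-titled ones (permutation p = 0.009, not past the threshold once adjusted over the pairs).

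Tnip3 and AA467197 had r = 0.39 and rho = 0.52 within groups. The permutation p was 0.0605 for r (adjusted 0.226) and 0.00493 for rho (adjusted 0.046), so the pair passed by rank and not by r. Without the 2 farthest libraries r was 0.50, which did not pass (permutation p adjusted to 0.0960). Over the M-titled libraries r was 0.405 (permutation p = 0.0799). By group r was 0.50 in the carbon-ion controls, 0.42 after carbon ions, 0.74 in the photon controls and -0.07 after photons. Tnip3 had an r of 0.30 with Birc3, 0.26 with Tnip1, 0.13 with Tnfaip3 and -0.05 with Nfkbia. The last became 0.25 without the 2 farthest libraries, and by group it was 0.01, -0.60, 0.62 and 0.54. Nfkbiz went the other way from Relb, with r = -0.52 and rho = -0.48, which did not pass (permutation p = 0.00583 for r, adjusted 0.0544 and 0.0706). Tnfaip3 and Nfkbiz had r = 0.46 and rho = 0.41, adjusted p = 0.0632 and 0.126.

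**Figure D4:**
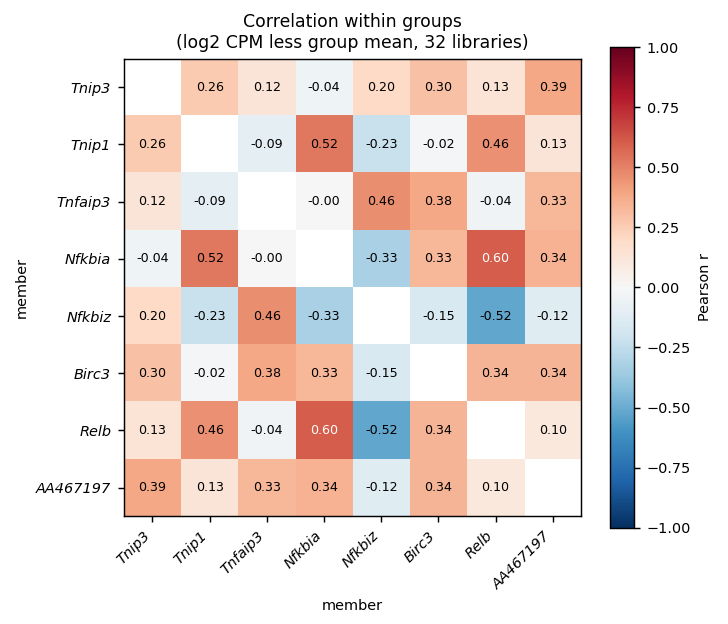
Pearson r between the members within groups (log2 CPM less the group mean, 32 libraries), coloured from -1 to 1. The darkest positive field off the diagonal is Nfkbia with Relb (0.60), and the darkest negative is Nfkbiz with Relb (-0.52).

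The genes most like Tnip3 and AA467197 within groups were found by the same measure among 12286 genes with a mean log2 CPM of at least 2. For AA467197 these included Cd274 (r = 0.779, rho = 0.757), which encodes PD-L1, Mmp12 (0.756, 0.784), a macrophage elastase, Slc15a3 (0.740, 0.739), a peptide transporter, and Il1r2 (0.737, 0.746), the interleukin-1 decoy receptor. They are the extremes of a search and carry no p. Without the 2 farthest libraries r lay between 0.701 and 0.718 for these 4. Cd274 followed AA467197 in each group, with r of 0.88 in the carbon-ion controls, 0.91 after carbon ions, 0.61 in the photon controls and 0.52 after photons.

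The group levels of Cd274, which the search did not use, were 7.78 ± 2.14 CPM (SD, n = 8) in the carbon-ion controls, 13.1 ± 5.06 after carbon ions, 8.94 ± 2.48 in the photon controls and 10.3 ± 2.53 after photons. Its log2 fold change after carbon ions was 0.75 (SE 0.20), with 5 of 8 libraries above the highest control and an edgeR adjusted p of 0.345, which did not pass. After photons it was 0.21 (SE 0.20). Mmp12 was at 1.04 (SE 0.33) after carbon ions and -0.13 (SE 0.33) after photons. Il1r2, in contrast, was at 0.22 (SE 0.21) after carbon ions and -0.68 (SE 0.21) after photons. Slc15a3 was at 0.495 (SE 0.153) after carbon ions and -0.309 (SE 0.154) after photons. It was higher in the carbon-ion than in the photon-irradiated tumours, by 0.67 (SE 0.15, edgeR adjusted p = 0.0196).

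The list for Tnip3 held other genes and lower values. It comprised Cdkn2aip (r = 0.643), a regulator of the p53 pathway, Itga2 (0.598), a collagen-binding integrin chain, Cyp4f18 (0.587), a cytochrome P450, Smim45 (0.587) and Map2 (0.559), a microtubule protein. None of the 4 genes named for AA467197 is among them, and no NF-kB gene of the lists is either. Cyp4f18 stood at 0.28 (SE 0.17) after carbon ions and -0.32 (SE 0.17) after photons, the same directions as Tnip3 at a smaller size. Cdkn2aip, the closest by likeness, was at 0.10 and 0.04 (SE 0.08 each), so its likeness to Tnip3 lay between tumours of a group.

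**Figure D5:**
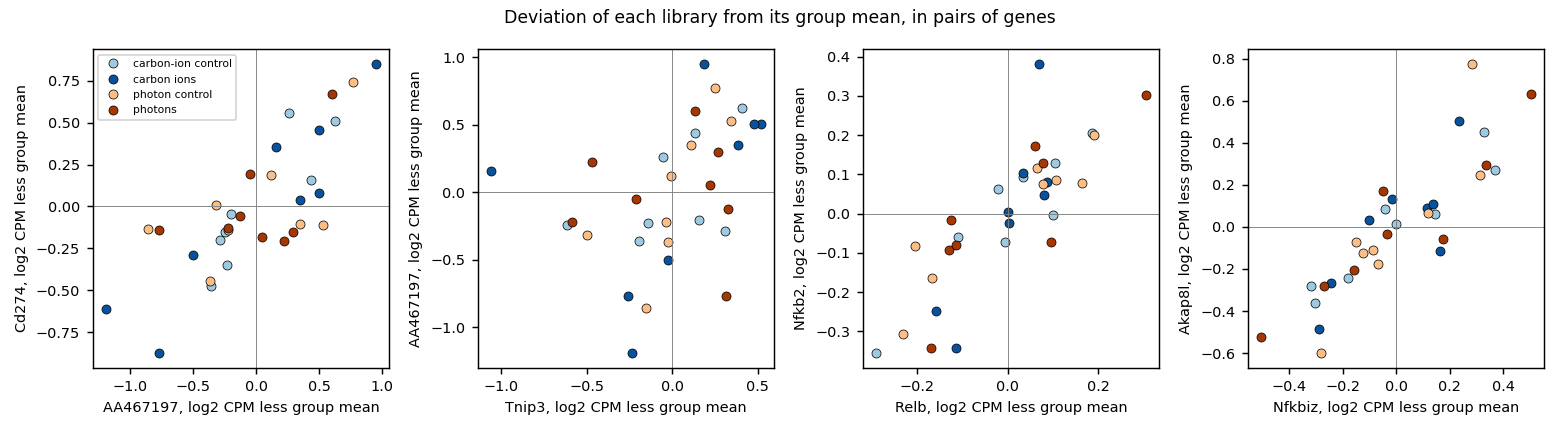
Deviation of each of the 32 libraries from its group mean in log2 CPM, coloured by group, for AA467197 and Cd274, Tnip3 and AA467197, Relb and Nfkb2, and Nfkbiz and Akap8l. The points of AA467197 with Cd274 rise along a line (r = 0.779), while those of Tnip3 with AA467197 scatter more widely (r = 0.39).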

How the data were processed

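Bulk tumour RNA of 32 libraries was extracted from tissue kept in RNAlater, with an RNA integrity number above 7.0, and made into stranded mRNA libraries, per the labels' protocols. The authors deposited estimated counts, 1 row per gene; the submitters' processing notes name FastQC 0.12.0, Trimmomatic 0.32, RSEM 1.3.3 and the build mm10, which is GRCm38. Of 853648 values above 0, 853646 had more than 2 decimals, so each was rounded, which changed library totals by at most 0.00403%. How the authors' counting used strand, and whether values were rescaled after RSEM, is not given in the sources used here.

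In R 4.3.3, edgeR 4.0.16 kept 20474 genes (filterByExpr, minimum count 10), scaled by TMM and fitted 1 quasi-likelihood model with 4 group means. P-values were adjusted by Benjamini-Hochberg over the 20474 genes, and 0.05 was the threshold. Log2 CPM used a prior count of 2. Correlations used 100000 two-sided permutations of libraries within groups, adjusted over 28 pairs of members, or 88 pairs of a member and a marker list. The calls were tested on simulated data. Alternatives were RLE and upper-quartile scaling, no filter, DESeq2 1.42.0, M titles alone, the title letter as covariate, only the groups compared, and leaving out each library.

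The members and all gene lists were chosen with earlier results of these data known. Named are the 8 members, the NF-kB subunits, Ndufa4, at most 3 list genes with the smallest p per list and contrast, the 5 genes most like Tnip3 and AA467197 (predicted genes passed over; 1 gene is not reported here) and genes overlapping a member. Cox5b, at rank 5 by p in the complex IV list between irradiated groups, was named beyond this rule. Replicates were numbered by deposition, which pairs nothing.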

Additional observations from a re-analysis of the deposited data

Results flagged for a closer look

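In the photon-irradiated group, replicate 3 had the lowest Birc3 level, at 22.65 CPM against a group median of 32.17 CPM. In log2 CPM its gap to the next library was 0.54 of the range of the group, above Dixon's critical value for 8 samples. On the CPM scale the gap was 0.482 of the range, below that value. In log2 CPM it was the 1 flag among 32 combinations of a member and a group, and chance flags about 1 in 20. This library also had the lowest total of all, 13891863 estimated counts.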

How the results depend on the processing

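Counts over all genes moved by more than 1.5 times under some settings, while the tested members mostly stayed on the same side of the threshold. DESeq2 called 17 genes after carbon ions, 1524 after photons, 262 for the difference of the effects and 1947 between irradiated groups. Without a filter the counts were 431 after photons, 4 for the difference and 319 between irradiated groups. Upper-quartile scaling gave 94 for the difference. With M titles alone, 1 gene passed for the difference and 973 between controls. With the title letter as covariate, 1081 passed between controls and 502 between irradiated groups. With only the groups compared, 57 passed between irradiated groups. Of the member pairs, 1 correlation passed with M titles alone and 1 without the 2 farthest libraries. Leaving out each library in turn gave 0 to 5 genes after carbon ions (5 without carbon-ion irradiated replicate 2), 239 to 1656 after photons (without photon control replicates 3 and 2) and 5 to 108 for the difference (108 without photon control replicate 2). It gave 1178 to 2196 between controls and 108 to 2159 between irradiated groups (without photon-irradiated replicate 3 and carbon-ion irradiated replicate 3). Members near 0 changed sign. Between controls Birc3 was at -0.004 with upper-quartile scaling and -0.02 with the title letter, Relb at 0.003 with only those groups and AA467197 at 0.031 with the title letter. Between irradiated groups Tnip1 was at -0.067 with upper-quartile scaling, -0.008 without a filter and -0.014 with the title letter, and Relb at 0.019 with M titles. Leaving out libraries moved the photon effect of Tnfaip3 from -0.005 to 0.055, of Relb from -0.005 to 0.067 and of AA467197 from -0.214 to 0.017 (without photon control replicate 3). Between controls it moved Birc3 from -0.012 to 0.046 and Relb from -0.04 to 0.048, and between irradiated groups Tnip1 from -0.028 to 0.044 and Relb from -0.061 to 0.011. Nfkbia between controls passed with upper-quartile scaling (adjusted p = 0.0357) and with only those groups (0.0242). The cause was not tested. No paired analysis was possible because the labels number no replicates. Depth limits AA467197 and Tnip3 most, with as few as 63 and 86 counts in a library.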

Other observations

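Some members had neighbours within groups that the rule for naming genes did not ask for, and these were chosen after their values were seen. Relb, the non-canonical subunit, had r = 0.834 with Nfkb2, which encodes its partner p52, and 0.785 with Nfkbie, another IkB gene. In the 4 groups Relb and Nfkb2 had r of 0.92, 0.84, 0.92 and 0.83. Nfkbiz had r = 0.876 with Akap8l, a nuclear RNA-binding protein, 0.815 with Prpf40b and 0.81 with Clk2, both of which act in splicing. For Nfkbiz and Akap8l r was 0.95, 0.80, 0.88 and 0.93 in the 4 groups. Birc3 had r = 0.687 with Itgam and 0.62 with Adgre1, both markers of myeloid cells. These r were uneven between groups: in the carbon-ion controls, after carbon ions, in the photon controls and after photons they were 0.24, 0.43, 0.83 and 0.91 for Itgam and -0.21, 0.18, 0.83 and 0.93 for Adgre1. Without the 2 farthest libraries r was 0.59 with Itgam and 0.42 with Adgre1. Tnfaip3 had r = 0.674 with Mdm2, a p53 target.

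Among 88 relations of a member with the summed markers of a cell type within groups, the dendritic cell list had r = 0.60 with Tnip1 (permutation p adjusted to 0.0378), 0.64 with Nfkbia (0.0229) and -0.56 with Nfkbiz (0.0458). Fscn1 made up 84.7% to 95.9% of that sum. Birc3 had r = 0.53 with the B and plasma cell list (0.0458), which did not pass by rank (0.229) and whose sum was at most 2.36 CPM.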
